A study of Mus musculus with 4 samples.

Results

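The 9 genes described here encode surface proteins that are used, singly or together, to sort spermatogonia, the dividing germ cells at the base of the seminiferous tubule. They are *Cd9*, *Thy1*, *Itga6*, *Itgb1*, *Epcam*, *Cd24a*, *Mcam*, *Cd81* and *Cd63*. They were taken by symbol from the 30828 genes of the expression matrices, by a rule that did not use their values, and each of the 9 symbols was found. The list itself was chosen with earlier results of these data known. *Cd9* and *Thy1* stand apart from the rest because antibodies against their proteins were used to sort the cells of the study.

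Testes were taken at postnatal day 8 from *Cnot3* flox/flox mice without Cre, the control, and from *Cnot3* flox/flox mice carrying *Ddx4*-creER, the Cnot3-cKO. CNOT3 is a subunit of the CCR4-NOT complex, which shortens the poly(A) tails of mRNAs. Both genotypes carried the floxed alleles and both received 4-hydroxytamoxifen from postnatal day 1, so the control is neither free of loxP sites nor untreated, although the labels call its genotype wild-type. The last day of injection differs among the 4 labels and is not taken from them here. The inducible Cre was driven by *Ddx4*, a germ cell gene, and was thus not meant to act in somatic cells. Dissociated cells were sorted as CD9+/THY1+ and their RNA was counted on a droplet platform as unique molecular identifiers (UMIs), 1 for each captured RNA molecule. The labels list 2 samples a genotype, and whether these are separate animals or sequencing runs of the same cells was not settled. Each genotype has 1 matrix that merges both, and its barcodes carry no sample name. Each comparison thus sets a single control library against a single Cnot3-cKO library. The comparisons have no replicate check, no test between genotypes was made, and every interval given is a 95% interval that covers counting error only.

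The control library held 181550221 UMIs and the Cnot3-cKO library 168770743. Cell calling and an upper limit of 20% mitochondrial UMIs left 8259 and 9268 cells. The 9 genes were kept out of the genes used for clustering, and clusters were named from marker lists. Germ-like cells numbered 1334 in control and 560 in Cnot3-cKO, Sertoli-like cells 2885 and 4362, stroma-like cells 2448 and 2357, peritubular myoid-like cells 1254 and 1576, macrophage-like cells 56 and 63, and endothelial-like cells 37 and 42. Within the germ-like cells, 398 and 319 were named SSC-like (SSC: spermatogonial stem cell), 202 and 10 progenitor-like, 410 and 89 differentiating-like and 109 and 46 meiotic-like, and the others fell into clusters led by stromal or Sertoli genes. Shares of cells were set in part by the sort. The SSC-like cells came from different clusters in each library, 1 with 397 control and 41 Cnot3-cKO cells and 1 with 1 and 278, so each SSC-like comparison below is also one between these clusters. After the germ-like cells were centred within their library, a single stage assignment gave 368 and 208 SSC-like cells, and its values are set beside the first where they matter. These SSC-like cells came from clusters with 216 control and 101 Cnot3-cKO cells and with 152 and 107. The centred assignment named 274 and 60 cells differentiating-like. A cluster of 145 and 99 cells, whose top gene was in the differentiating list, took no stage name and is left out of the centred stages. Libraries shared 18 of their called barcodes. Levels are given as CPM, the UMIs of a gene per 1000000 UMIs of all genes in the same cells. In the germ-like cells *Cnot3* itself was at 71.1 CPM in the control and 39.4 CPM in the Cnot3-cKO library (log2 ratio -0.85, -0.95 to -0.75).

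CD9, CD81 and CD63 are tetraspanins, proteins that cross the membrane several times and gather integrins and other partners into patches of membrane. CD9 and CD81 sit mainly at the plasma membrane, while CD63 is best known from late endosomes, lysosomes and exosomes. ITGA6 and ITGB1 pair as a laminin receptor, and antibodies to each have long been used to enrich cells attached to the basement membrane of the tubule, spermatogonial stem cells among them. EPCAM is a homophilic adhesion protein of epithelia and germ cells. MCAM is an adhesion protein of the immunoglobulin superfamily that is also made by endothelium. THY1 and CD24 are small glycoproteins held in the membrane by a lipid anchor, and THY1 is at the same time a classic marker of T lymphocytes and of some fibroblasts.

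On the GRCm38 assembly (GENCODE M21, matched by gene identifier), all 9 are protein-coding genes on 7 chromosomes. *Itga6* lies on chromosome 2 (71745616 to 71858416, plus strand), *Cd9* on chromosome 6 (125460266 to 125494791, minus strand), *Cd81* on chromosome 7 (143052739 to 143067934, plus strand) and *Itgb1* on chromosome 8 (128685654 to 128733200, plus strand). *Thy1* (44043384 to 44048579) and *Mcam* (44134469 to 44142727) both lie on the plus strand of chromosome 9, and *Cd24a* (43578284 to 43584265) and *Cd63* (128900989 to 128912822) on that of chromosome 10. *Epcam* lies on chromosome 17 (87635979 to 87651129, plus strand). The annotation names a pseudogene for *Cd9* and one for *Cd63*, and 2 noncoding genes overlap *Itga6* on its own strand, so reads shared with these could have been lost or misplaced in the 3 genes.

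*Epcam* was the member with the largest excess in germ-like cells and 1 of the 2 that were more than 1.5-fold higher in Cnot3-cKO germ-like cells, so the 250 bases before its start are shown (RefSeq, GRCm38.p6, chr17:87635729-87635978, plus strand), with the GC box GGGCGG, searched on both strands, in capitals:
Epcam: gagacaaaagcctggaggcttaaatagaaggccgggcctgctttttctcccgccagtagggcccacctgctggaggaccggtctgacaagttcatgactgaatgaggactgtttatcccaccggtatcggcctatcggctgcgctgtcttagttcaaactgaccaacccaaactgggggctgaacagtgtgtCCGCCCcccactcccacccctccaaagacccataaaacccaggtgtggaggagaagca
This window held 1 GC box and neither TATAAA nor CACGTG, and its GC content was 56.4%. The RefSeq window of *Mcam*, the other member past that fold, lies mostly inside the gene as placed above, since RefSeq starts it further downstream. It held 5 GC boxes, neither of the other motifs, and a GC content of 73.6%. Of 32851 RefSeq promoter windows of the same length, 32.7% held a GC box, 12.4% TATAAA and 6.02% CACGTG, and the median GC content was 52.4%. A match is a description of letters and not of a bound site.

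The first question was where in the sorted cells each gene was expressed. Most of the UMIs of *Epcam* and *Mcam* lay in germ-like cells, most of those of *Itga6* in Sertoli-like cells, and most of those of *Itgb1*, *Cd81* and *Cd63* in somatic cells. Of all *Epcam* UMIs, 94.6% were in germ-like cells in control and 92.4% in Cnot3-cKO, and of all *Mcam* UMIs 81.5% and 78.3%. Germ-like cells held 35.1% and 17.4% of the UMIs of all genes, which is the level to set these shares against. For *Cd9* the germ-like share was 41.9% and 27.0%, and for *Cd24a* 55.2% and 33.3%. Sertoli-like cells held 71.9% and 80.8% of the *Itga6* UMIs. Germ-like cells held only 8.98% and 3.96% of *Cd81*, and 9.12% and 4.47% of *Cd63*.

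**Figure D1:**
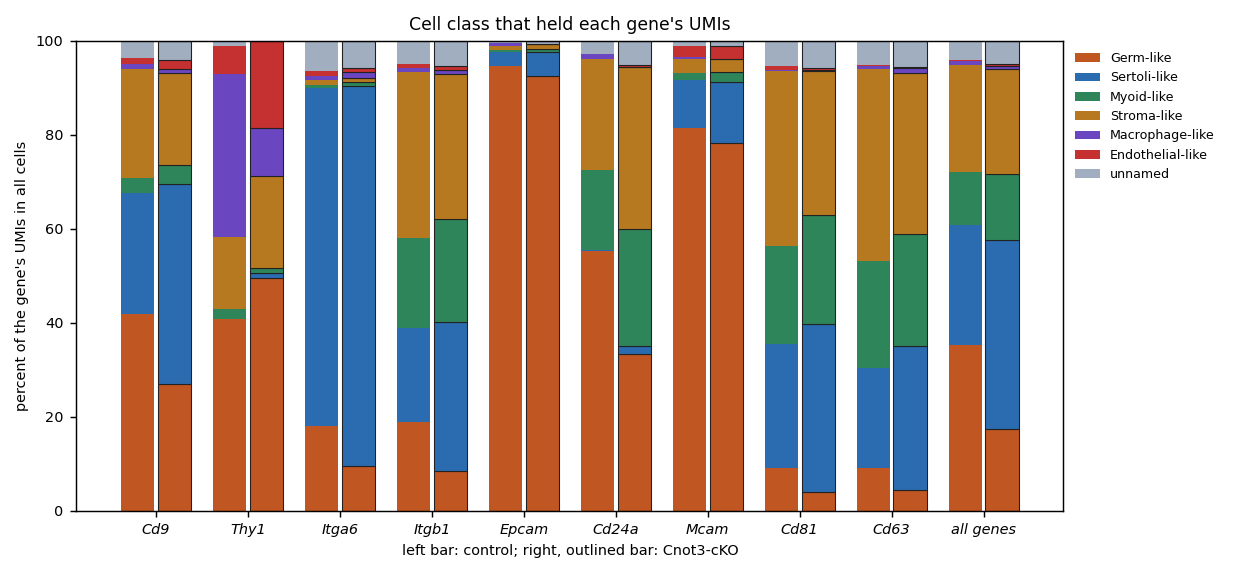
Percent of each gene's UMIs (vertical axis) that lay in each cell class, for the 9 genes and for all genes together, with the control library on the left of each pair and the Cnot3-cKO library on the right, outlined. The germ-like block fills over 90% of both *Epcam* bars and under 10% of all *Cd81* and *Cd63* bars, while it is 35.1% and 17.4% for all genes.

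Levels in CPM were compared between germ-like cells and all other named cells of the same library. *Epcam* was at 132 CPM in control germ-like cells and 3.98 in the other cells, a log2 ratio of 5.05 (4.91 to 5.20), and in the Cnot3-cKO library at 227 and 3.75, which is 5.91 (5.77 to 6.06). *Mcam* was higher in germ-like cells by 3.01 (2.89 to 3.13) and 4.09 (3.97 to 4.21) on the log2 scale, and *Cd24a* by 1.18 (1.03 to 1.33) and 1.28 (1.06 to 1.49). These 3 of the 8 members with enough UMIs were at least 2-fold higher in germ-like cells in both libraries, where 22.6% of all 14178 genes were. *Cd81* (-2.46 and -2.35), *Cd63* (-2.44 and -2.17) and *Itgb1* (-1.23 and -1.18) were at least 2-fold lower in germ-like cells in both, again 3 of 8, beside 26.9% of all genes. *Itga6* was at -1.28 in control and -0.98 in Cnot3-cKO, on either side of that limit. *Cd9*, the gene of a protein the cells were sorted by, was 0.41 (0.37 to 0.46) and 0.81 (0.75 to 0.86) higher in germ-like cells on the log2 scale, less than 2-fold in both.

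**Figure D2:**
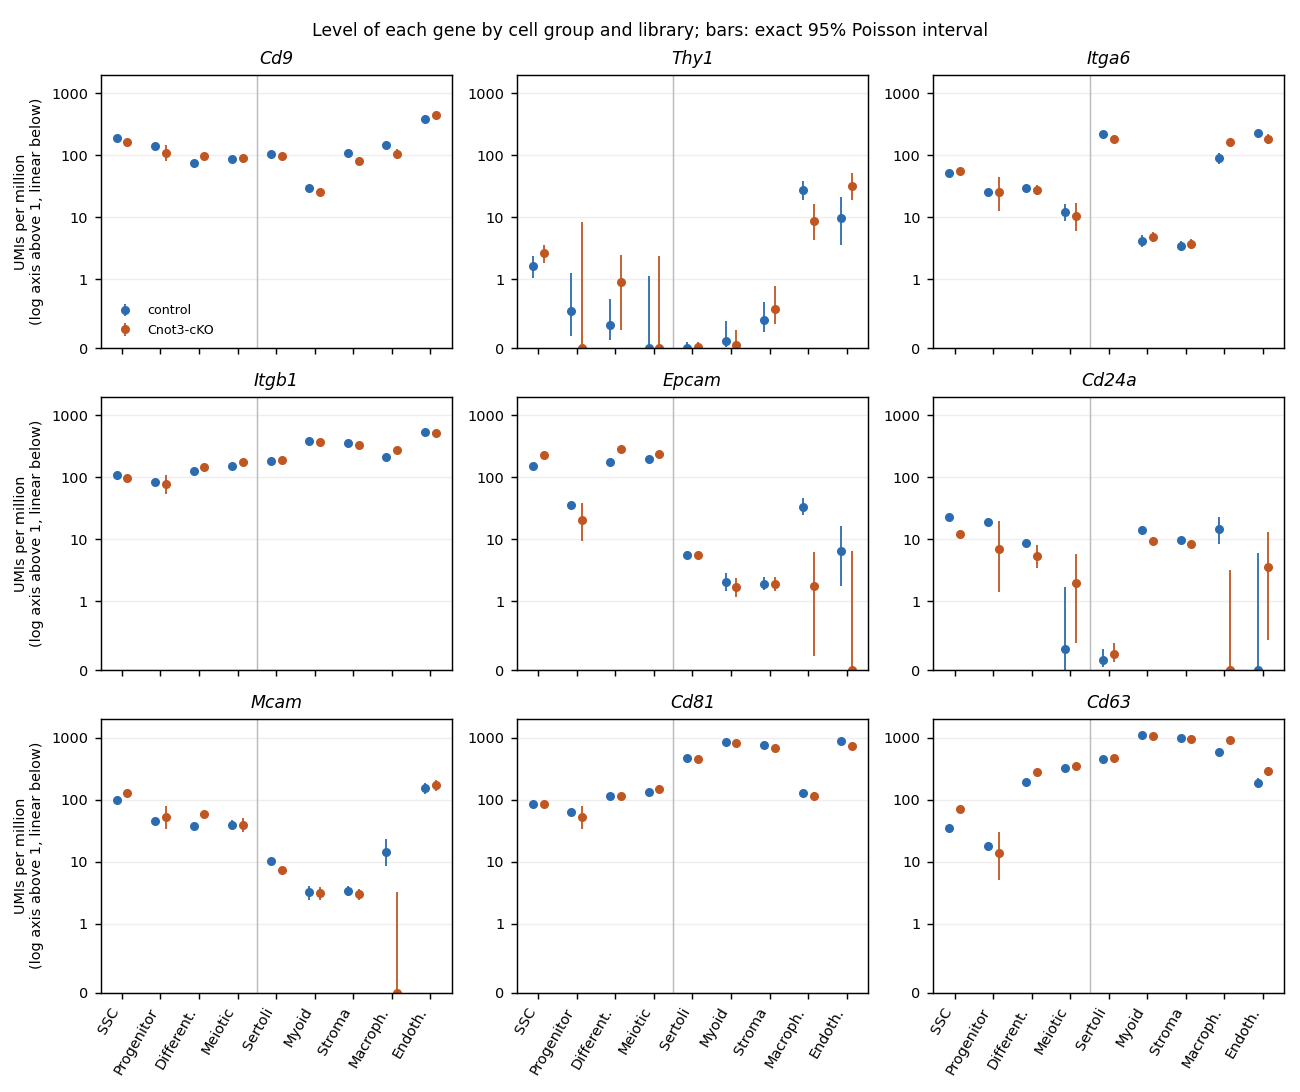
CPM (vertical axis, logarithmic above 1 and linear below) of each gene in 4 germ stages, left of the grey line, and 5 somatic or blood-derived classes, for the control (blue) and Cnot3-cKO (orange) libraries, with exact Poisson intervals. *Epcam* drops in the progenitor-like cells and is low in somatic classes, *Cd63* climbs from progenitor-like to meiotic-like cells, and *Thy1* is below 3 CPM in all classes but the macrophage-like and endothelial-like.

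*Cd9* was found in every class, but all cells had been sorted by its protein, and the part of the sort in its levels was not tested. *Cd9* was highest in endothelial-like cells, at 390 (342 to 443) CPM in control and 442 (388 to 500) in Cnot3-cKO. SSC-like cells came next at 193 (186 to 200) and 165 (158 to 172), and progenitor-like cells below them at 143 (135 to 151) and 108 (79.4 to 144). From there, macrophage-like (146 and 105), Sertoli-like (106 and 97.0), stroma-like (108 and 81.3), meiotic-like (87.5 and 89.4) and differentiating-like cells (76.0 and 96.3) overlapped between neighbours, and the myoid-like cells were below all of them at 29.9 and 25.7. Here and below, 2 neighbouring classes are called separate only where both libraries of one lie above both of the other. Along the germ stages *Cd9* was therefore higher in the SSC-like and progenitor-like cells than in the later ones. Sertoli-like and stroma-like levels were not uniform within the class. Among the Sertoli-like clusters *Cd9* ran from 62.1 to 215 CPM in control and from 62.3 to 189 in Cnot3-cKO, and among the stroma-like clusters from 44.6 to 158 and from 33.4 to 128.

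Counted per cell, the germ-like excess of *Cd9* was larger than in CPM. Germ-like cells had a median depth of 42275.5 and 46151.5 UMIs, against 13287 and 12759 in Sertoli-like cells. A germ-like cell held on average 5.35 and 6.57 *Cd9* UMIs, a Sertoli-like cell 1.52 and 1.33, a stroma-like cell 1.61 and 1.14, and a myoid-like cell 0.435 and 0.346. After each cell was thinned to 7000 UMIs, a depth that all cells reached, a *Cd9* UMI was left in 52.5% (49.8 to 55.3) of the germ-like cells of control and 58.9% (54.7 to 63.0) of those of Cnot3-cKO, and without thinning 91.8% and 95%. The thinned shares were 46.5% and 44.2% in Sertoli-like cells, 40.0% and 32.9% in stroma-like cells, 17.5% and 14.7% in myoid-like cells and 86.5% and 88.1% in endothelial-like cells. Empty barcodes, those with at most 100 UMIs, held *Cd9* at 78.9 and 88.3 CPM, and the part of free RNA in the lower levels, such as the myoid-like, was not tested.

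*Thy1*, whose protein was the other label of the sort, was close to absent from the RNA. All control cells together held 98 *Thy1* UMIs and all Cnot3-cKO cells 97. A *Thy1* UMI was seen in 63 of 8259 control cells, or 0.763% (0.587 to 0.975), and in 69 of 9268 Cnot3-cKO cells, or 0.744% (0.580 to 0.941). Both *Cd9* and *Thy1* UMIs were seen in 56 cells (0.678%) and 57 cells (0.615%). The protein was not measured here, and a 3′ count at this depth does not show how many of these cells carry THY1 on their surface.

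Within the germ-like cells the level of *Thy1* was 0.705 (0.504 to 0.960) CPM in control, from 40 UMIs, and 1.85 (1.37 to 2.46) in Cnot3-cKO, from 48. SSC-like cells held 26 and 39 of these UMIs, at 1.63 (1.07 to 2.39) and 2.60 (1.85 to 3.56) CPM, and their values lay above those of the other germ stages in both libraries. Progenitor-like cells held 5 and 0, differentiating-like cells 6 and 4, and meiotic-like cells 0 and 0 UMIs. After thinning, 4 of 398 control and 6 of 319 Cnot3-cKO SSC-like cells had a *Thy1* UMI, which is 1.01% (0.274 to 2.55) and 1.88% (0.693 to 4.05), and without thinning 6.03% and 9.72%. Sertoli-like cells gave 0 of 2885 and 0 of 4362 after thinning, which allows shares of up to 0.104% and 0.0688%. Empty barcodes held *Thy1* at 0.580 (0.158 to 1.49) and 0.827 (0.303 to 1.80) CPM, from 4 and 6 UMIs. The intervals of the germ-like cells overlapped these in both libraries, and of the SSC-like cells only those of Cnot3-cKO lay above them. Free RNA was estimated at no more than 8.64% and 7.20% of germ-like UMIs, so this overlap does not measure its part in the levels. The stroma-like cells held 15 and 19 UMIs, 0.408 (0.229 to 0.674) and 0.575 (0.346 to 0.898) CPM, with intervals that overlapped those of the empty barcodes.

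The highest *Thy1* levels were in the 2 rarest classes, and a few barcodes carried them. Macrophage-like cells stood at 27.4 (19.0 to 38.2) CPM in control and 8.80 (4.22 to 16.2) in Cnot3-cKO. In control, 8 of the 56 macrophage-like barcodes held all 34 *Thy1* UMIs of the class, and all 8 also held UMIs of the T cell list (*Cd3e*, *Cd3d*, *Cd3g*, *Cd2*, *Lck* and *Trac*), 427 of the 477 in the class (89.5%). In Cnot3-cKO, 6 of 63 barcodes held the 10 *Thy1* UMIs and 36 of the 43 T cell list UMIs (83.7%). None of these barcodes had a UMI of *C1qa*, a complement gene of macrophages, and their macrophage list averaged 29.5 and 0 UMIs a cell, against 312 and 335 in the other cells of the class. Endothelial-like cells stood at 9.80 (3.60 to 21.3) and 32.3 (19.2 to 51.1) CPM, from 1 barcode with 6 *Thy1* UMIs in control and from 2 in Cnot3-cKO, 1 of which held 15 of the 18. Each of these levels thus rested on very few cells.

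The laminin receptor genes had different patterns. *Itga6* was highest in endothelial-like (225 and 183 CPM) and Sertoli-like cells (216 and 181), which were not separate, and next in macrophage-like cells (89.3 and 162). Among germ cells it declined from the SSC-like (51.8, 48.3 to 55.4, and 54.9, 51.2 to 58.8) through the differentiating-like (29.8 and 27.3) and progenitor-like cells (25.4 and 25.3) to the meiotic-like cells (12.1 and 10.4), each step being separate as defined above, although the Cnot3-cKO progenitor-like value came from 11 UMIs. In the centred stages the differentiating-like (24.7 and 24.9) and progenitor-like cells (24.5 and 45.9) were not separate. Myoid-like and stroma-like cells, at 4.17 and 4.81 and at 3.49 and 3.72, were lowest. *Itgb1*, the partner of *Itga6*, rose among germ cells from progenitor-like (83.6 and 78.1) through SSC-like (111 and 96.2) and differentiating-like (126 and 145) to meiotic-like cells (151 and 178). *Itgb1* was higher still in all 5 somatic or blood-derived classes, from 181 and 192 in Sertoli-like to 533 and 524 in endothelial-like cells. The thinned share of cells with an *Itga6* UMI was 73.6% and 66.2% in Sertoli-like, 25.9% and 33.2% in SSC-like and 3.43% and 3.11% in myoid-like cells. At equal depth, therefore, an *Itga6* UMI was seen in a larger share of Sertoli-like than of SSC-like cells. Without thinning, an SSC-like cell held 2.07 and 2.58 *Itga6* UMIs on average and a Sertoli-like cell 3.11 and 2.48.

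The adhesion genes *Epcam* and *Mcam* had most of their UMIs in germ-like cells, and differed from each other along the germ stages. *Epcam* was at 154 (148 to 160) and 229 (221.6 to 237) CPM in SSC-like, 174 (168 to 180) and 288 (272 to 305) in differentiating-like and 199 (183 to 214) and 241 (217 to 267) in meiotic-like cells, which were not separate, but only at 35.7 (32.0 to 39.8) and 20.7 (9.46 to 39.3) in progenitor-like cells. The dip was also seen in the centred stages, at 37.3 and 67.3 in progenitor-like cells beside 161 and 265 in SSC-like and 194 and 308 in differentiating-like cells. *Mcam* had no such dip. It was highest in SSC-like cells, at 96.9 (92.2 to 102) and 127 (121 to 133), and lower in progenitor-like (45.95 and 52.9), differentiating-like (37.1 and 58.8) and meiotic-like cells (39.3 and 39.2), which were not separate. *Mcam* was higher again in endothelial-like cells, at 154 and 169, where *Epcam* was at 6.53 and 0.

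In the somatic classes *Epcam* stood at 5.69 and 5.56 CPM in Sertoli-like cells and at or below 2.09 in stroma-like and myoid-like cells, and *Mcam* at 10.0 and 7.31 and at or below 3.35. Empty barcodes held *Epcam* at 34.5 and 41.9 and *Mcam* at 21.9 and 32.4, and the part of free RNA in these low values was not tested. Control macrophage-like cells stood out at 33.8 for *Epcam* and 14.5 for *Mcam*, against 1.76 and 0 in Cnot3-cKO. The 8 germ markers summed to 472 CPM in the same control cells and to 22.9 in the Cnot3-cKO ones, and their part in these values was not tested.

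*Cd24a* was the weakest of the germ-biased genes. It was at 23.3 (21.0 to 25.8) and 12.1 (10.4 to 14.0) CPM in SSC-like cells and at 18.9 and 6.89 in progenitor-like cells, from 175 and 3 UMIs. Levels were below the SSC-like in differentiating-like (8.76 and 5.50) and meiotic-like cells (0.309 and 1.96), the last from 1 and 3 UMIs. The centred stages put progenitor-like cells at 19.6 and 18.1 CPM, from 196 and 28 UMIs, beside 23.4 and 12.4 in SSC-like cells. SSC-like and progenitor-like cells were thus not separate under either assignment. Myoid-like cells (14.4 and 9.38) held *Cd24a* at levels not separate from the SSC-like, and stroma-like cells (9.86 and 8.41) were below the SSC-like in both libraries. Sertoli-like cells held 6 and 14 *Cd24a* UMIs in all, or 0.145 and 0.234 CPM. After thinning it was seen in 14.6% (11.3 to 18.4) and 7.21% (4.63 to 10.6) of SSC-like cells and in 8.69% and 6.15% of myoid-like cells.

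The other 2 tetraspanins were abundant in somatic cells. *Cd81* was at 844 and 815 CPM in myoid-like, 884 and 740 in endothelial-like, 749 and 690 in stroma-like and 473 and 445 in Sertoli-like cells, and at 52.9 to 149 in the 4 germ stages of both libraries. *Cd63* was at 1103 and 1047 in myoid-like, 975 and 963 in stroma-like and 449 and 473 in Sertoli-like cells. Within the germ line *Cd63* was at 17.8 (15.2 to 20.7) and 13.8 (5.06 to 30.01) in progenitor-like, 34.5 (31.6 to 37.5) and 69.3 (65.2 to 73.7) in SSC-like, 195 (189 to 202) and 283 (267 to 300) in differentiating-like and 323 (303 to 343) and 354 (325 to 385) in meiotic-like cells, each step being separate. *Cd63* was thus higher in the differentiating-like and meiotic-like cells, where *Cd9* was lower than in the SSC-like and progenitor-like cells. Both germ clusters led by genes of other cells, which are left out of these stages, held *Cd63* at 173 to 343.

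The second question was whether the genes differed between the genotypes. In germ-like cells 2 of the 8 members that reached 100 UMIs in the 2 libraries together were at least 1.5-fold higher in Cnot3-cKO, *Epcam* and *Mcam*, and 0 were lower by that factor. Of all 13298 genes with as many UMIs, 6.71% were higher and 3.15% lower by that factor, and the median log2 ratio was 0.18 over the 8 members and 0.02 over all genes. *Epcam* was at 132 (129 to 135) CPM in the control library and 227 (221 to 232) in the Cnot3-cKO library, a log2 ratio of 0.78 (0.73 to 0.83). *Mcam* was at 58.1 (56.2 to 60.2) and 102 (98.2 to 106) CPM, a log2 ratio of 0.81 (0.74 to 0.89). They stood at the 96.5 and 96.8 percentiles of the ratios of all genes. At 7000 UMIs a cell, detection in germ-like cells went from 51.9% (49.2 to 54.6) to 69.3% (65.3 to 73.1) for *Epcam* and from 32.2% (29.7 to 34.7) to 47.9% (43.7 to 52.1) for *Mcam*.

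The mix of germ stages differed between the libraries, and the pooled ratios changed when the stages as clustered were weighted alike. When each stage was given the weight it had in control, *Epcam* was at 0.57 and *Mcam* at 0.41, both under 1.5-fold, *Cd24a* at -0.95 was past it, *Cd9* went from 0.17 to -0.10 and *Itga6* from 0.33 to 0.00. The progenitor stage then rested on 10 Cnot3-cKO cells, and the SSC-like cells came from different clusters in each library. The weights were not applied to the centred stages, so whether these changes hold there was not tested. With the filters stated by the study, after which 241 control and 73 Cnot3-cKO cells were named germ-like, *Epcam* was at 0.46 and *Mcam* at 0.54, and *Itga6* (0.62) and *Cd24a* (-1.79) were the members past 1.5-fold.

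**Figure D3:**
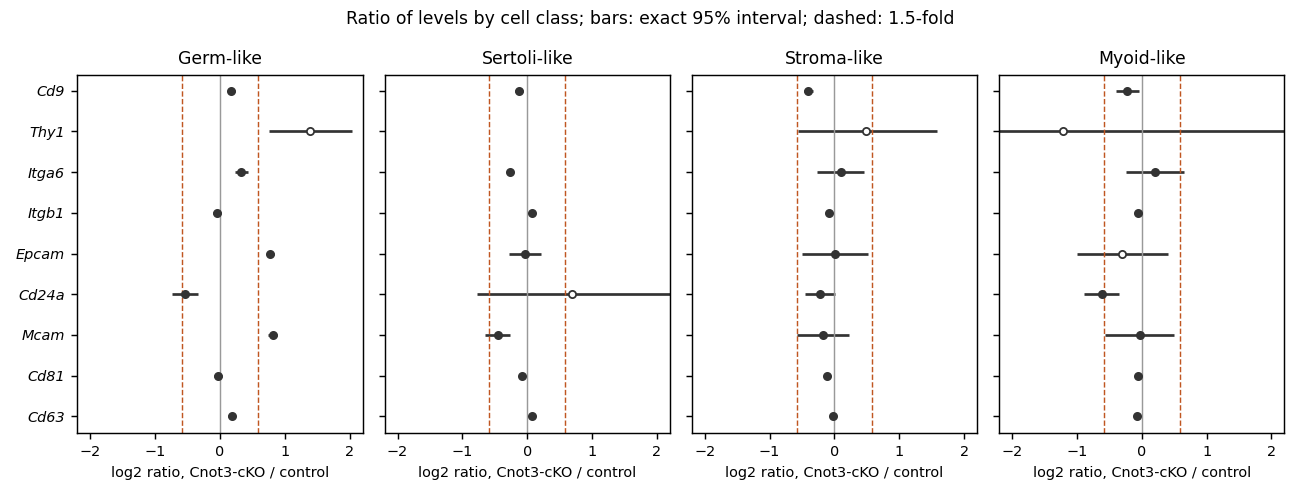
Log2 ratio of CPM, Cnot3-cKO over control (horizontal axis), of each gene in 4 cell classes, with exact intervals, where open circles mark ratios from fewer than 100 UMIs and dashed lines 1.5-fold. *Epcam* and *Mcam* lie right of the dashed line in germ-like cells and near or left of 0 in the other classes. *Thy1* has no point in Sertoli-like cells, where control had 0 UMIs, and the bars of *Thy1* in myoid-like and *Cd24a* in Sertoli-like cells run past the axis.

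Within stages, *Epcam* was higher in Cnot3-cKO in SSC-like cells by 0.57 (0.50 to 0.65) on the log2 scale, in differentiating-like cells by 0.73 (0.63 to 0.82) and in meiotic-like cells by 0.28 (0.09 to 0.47). In the 10 progenitor-like cells, from 9 UMIs, its ratio was -0.79 (-1.93 to 0.15). In the centred stages it was higher in all 4, by 0.72 (0.64 to 0.80), 0.85 (0.52 to 1.17), 0.67 (0.56 to 0.78) and 0.35 (0.18 to 0.51) from SSC-like to meiotic-like. *Mcam* was higher by 0.39 (0.29 to 0.49) in SSC-like and 0.67 (0.45 to 0.88) in differentiating-like cells, and in meiotic-like cells its levels were 39.3 and 39.2 CPM. The centred stages gave *Mcam* ratios of 0.56 (0.45 to 0.67), 1.07 (0.79 to 1.34), 0.91 (0.63 to 1.18) and 0.23 (-0.17 to 0.62). Both genes were therefore higher within the SSC-like and differentiating-like stages under either assignment, although the assignments did not hold all the same cells. The smallest of the centred ratios were those of the meiotic-like cells. The progenitor-like ratio of *Epcam* changed sign with the assignment.

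Of the 8 members with at least 100 UMIs, *Cd63* and *Cd24a* had the largest differences within SSC-like cells. *Cd63* went from 34.5 CPM in control to 69.3 in Cnot3-cKO SSC-like cells, a log2 ratio of 1.01 (0.86 to 1.16), and 1.12 (0.96 to 1.29) in the centred stages. It was also higher in differentiating-like cells, by 0.54 (0.44 to 0.63), or 0.21 (0.10 to 0.32) when centred, and at 0.13 (-0.02 to 0.28) in meiotic-like cells. Over all germ-like cells, where stages with high and low levels are mixed, the *Cd63* ratio was 0.18 (0.13 to 0.24). It was 0.48 with the stages as clustered weighted as in control and 0.29 with the profile of the empty barcodes subtracted. With a mitochondrial limit of 10% it turned to -0.15. *Cd24a* went from 23.3 to 12.1 in SSC-like cells, a log2 ratio of -0.95 (-1.21 to -0.69), and -0.91 (-1.23 to -0.61) when centred. In all germ-like cells *Cd24a* went from 14.97 (13.98 to 16.01) to 10.3 (9.10 to 11.6), a log2 ratio of -0.54 (-0.74 to -0.34) that lay just under 1.5-fold. In differentiating-like cells it was at -0.67 (-1.37 to -0.04), or -0.22 (-1.05 to 0.52) when centred, from 23 and 18 Cnot3-cKO UMIs.

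*Cd9* differed little between the genotypes in germ-like cells, and its direction differed between stages. Cells of both libraries had been sorted by CD9 protein, and the part of the sort in these ratios was not tested. The germ-like level of *Cd9* was 126 (123 to 129) CPM in control and 142 (137 to 147) in Cnot3-cKO (log2 ratio 0.17, 0.12 to 0.23). In SSC-like cells it was lower in Cnot3-cKO by a log2 ratio of -0.22 (-0.30 to -0.15), or -0.10 (-0.19 to -0.01) when centred, and in differentiating-like cells it was higher by 0.34 (0.18 to 0.50), or 0.56 (0.33 to 0.78). *Itga6* was at 0.33 (0.23 to 0.43) over all germ-like cells, but at 0.08 (-0.06 to 0.23) in SSC-like and -0.13 (-0.43 to 0.17) in differentiating-like cells. In the centred progenitor-like cells *Itga6* was at 0.91 (0.51 to 1.30), from 245 and 71 UMIs. *Itgb1* (-0.05, -0.11 to 0.01) and *Cd81* (-0.04, -0.10 to 0.03) had intervals that held 0 over all germ-like cells. *Itgb1* was nevertheless lower in SSC-like cells, at -0.20 (-0.30 to -0.10), and higher in differentiating-like cells, at 0.20 (0.07 to 0.33). When centred, *Itgb1* was at -0.19 (-0.30 to -0.07) in SSC-like cells, but its differentiating-like interval held 0 (0.11, -0.04 to 0.27). *Thy1* had a log2 ratio of 1.39 (0.76 to 2.04) over all germ-like cells, from 40 and 48 UMIs, too few for it to be counted above, and of 0.67 (-0.08 to 1.45) in SSC-like cells. When centred, the SSC-like ratio of *Thy1* was 1.13 (0.35 to 1.93), from 25 and 35 UMIs. Over all germ-like cells it turned to -0.59 with the study's filters.

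In each of the 3 large somatic classes at most 1 member passed 1.5-fold. In Sertoli-like cells 0 of 7 members passed 1.5-fold in either direction, where 1.1% of all genes were higher and 0.986% lower. *Itga6* went from 216 (212 to 221) to 181 (178 to 184) CPM there, a log2 ratio of -0.26 (-0.30 to -0.22), and *Mcam* from 10.0 to 7.31, a ratio of -0.46 (-0.65 to -0.26). In stroma-like cells 0 of 8 passed, beside 0.959% of all genes higher and 0.853% lower. The largest difference there was that of *Cd9*, from 108 (104 to 111) to 81.3 (78.3 to 84.4), a ratio of -0.40 (-0.48 to -0.33), and *Cd9* was lower in Cnot3-cKO in each of the 3 stroma-like clusters. In myoid-like cells 1 of 7 passed, lower, beside 1.9% of all genes higher and 0.904% lower. That gene was *Cd24a*, from 14.4 (12.7 to 16.2) to 9.38 (8.12 to 10.8), a ratio of -0.62 (-0.89 to -0.35). Without a myoid-like cluster of 2 control and 89 Cnot3-cKO cells, an alternative chosen after seeing the data, *Cd24a* was at -0.55 and 0 of 7 passed, and *Cd9* in myoid-like cells went from -0.22 to -0.50. The 2 rare classes, with 37 to 63 cells a library, held larger differences. In macrophage-like cells *Itga6* had a ratio of 0.86 (0.51 to 1.21), from 111 and 184 UMIs, *Cd63* one of 0.66 (0.52 to 0.80), from 727 and 1048, and *Cd9* one of -0.48 (-0.82 to -0.13), from 181 and 119. In endothelial-like cells *Cd63* had a ratio of 0.63 (0.27 to 0.99), from 113 and 159 UMIs. The germ marker sums of the macrophage-like cells, which differed between the libraries, are given above, and their part in these ratios was not tested.

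Other surface genes were described by 3 lists, which share *Itgav*, *Cd82* and *Tspan8* among them. Of 14 other spermatogonial surface genes with enough UMIs in germ-like cells, 3 were at least 1.5-fold higher in Cnot3-cKO and 0 lower, with a median log2 ratio of 0.32. They were *Gfra1*, the GDNF co-receptor of stem cells, at 1.21 (1.09 to 1.34), *Itgav* at 0.68 (0.38 to 0.98) and the ephrin receptor gene *Epha2* at 0.62 (0.33 to 0.90). Of 11 integrin subunits 2 were higher, *Itgb4*, the other known partner of *Itga6*, at 0.98 (0.63 to 1.33) and *Itgav*, and 0 lower, with a median of 0.25. Of 18 tetraspanins and partners, 1 was higher, *Tspan17* at 1.09 (0.87 to 1.32), and 2 were lower, *Tspan33* at -0.63 (-0.81 to -0.45) and *Igsf8*, whose protein binds CD9 and CD81, at -0.67 (-0.81 to -0.52), with a median of -0.20. The shares of all genes past that fold are the 6.71% and 3.15% given above. These list ratios pool the germ stages, whose mix differed between the libraries, and they were not weighted by stage. Over all germ-like cells, the 8 genes of the SSC marker list summed to 143 (control) and 338 CPM (Cnot3-cKO). Within the SSC-like cells alone, the sums were 350 and 471. The part of the stage mix in the list ratios, that of *Gfra1* among them, was not tested. In Sertoli-like cells 0 genes of the 3 lists were past 1.5-fold, of 8 other spermatogonial surface genes, 17 tetraspanins and partners and 8 integrin subunits. Of all genes there, 1.1% were higher and 0.986% lower. In stroma-like cells 1 of 16 tetraspanins and partners was lower, beside 0.853% of all genes. In myoid-like cells 1 of 7 other spermatogonial surface genes, 1 of 16 tetraspanins and partners and 1 of 13 integrin subunits were lower, beside 0.904% of all genes.

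Across the 9 classes and stages of both libraries, 18 points that share libraries and depth, likeness of pattern was measured as Pearson's r of log2(CPM + 1), as a description. Among the members the closest pair was *Itgb1* and *Cd81* (r = 0.89), followed by *Itgb1* and *Cd63* (0.74) and *Cd81* and *Cd63* (0.69). *Epcam* ran against *Itgb1* and against *Cd81* (both -0.75), and *Mcam* against *Cd63* (-0.69). *Cd9* had an r of 0.67 with both *Thy1* and *Itga6* and 0.66 with *Mcam*, and of 0.02 and -0.12 with *Itgb1* and *Cd81*. Of 12969 genes compared, those most like *Cd9* were *Sh2d3c* (0.90), *Pdgfb* (0.87) and *Ubald2* (0.86), and those most like *Thy1* were *Srgn* (0.95), *Lmo2* (0.95) and *Gngt2* (0.95). *Thy1* itself held 98 and 97 UMIs in all cells, under the 500 asked of the compared genes. Its highest levels came from the few macrophage-like and endothelial-like barcodes described above, so every r of *Thy1* rests on few cells. *Itga6* was most like *Bnip2*, *Shtn1* and *Tpd52* (0.93 to 0.95), and *Itgb1* most like *Tpm4*, *Xbp1* and *Slc29a1* (0.96 to 0.97). *Epcam* was most like *Tmem59l*, *Kbtbd8* and *Orc1* (0.97 to 0.98), *Mcam* most like *Zfp335*, *Dgke* and *Ptpn12* (all 0.93), and *Cd24a* most like *Rpsa*, *Col25a1* and *Jph4* (0.87 to 0.89). *Cd81* was most like *Creb3l2*, *Pkia* and *Bmp1* (all 0.98), and *Cd63* most like *RP23-353K7.9*, *Stt3a* and *Acot2* (0.94 to 0.95).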

How the data were processed

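Cells of postnatal day 8 testes of 4 labelled samples, 2 a genotype, were measured by 10x droplet sequencing of transcript 3′ ends. The authors deposited UMI counts, not normalized, made with Cell Ranger (3.0.1, in the submitters' processing notes, as is mm10), with 2 matrices that each merge both samples of a genotype. Groups came from the genotype labels, and 0 columns of per-sample values went unused.

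Barcodes were taken as cells by comparing their UMIs with the top barcodes (at least a fraction 1/10 of the 99th percentile among 3000 expected cells), at thresholds of 7977 UMIs in control and 7664 in Cnot3-cKO, which gave 8341 and 9336 barcodes. The limit of 20% mitochondrial UMIs, with no upper bound on UMIs, replaced the study's filters (10% and the mean plus or minus 2 SD), an alternative after which 241 control and 73 Cnot3-cKO cells were named germ-like, against 1334 and 560. Cells were clustered with Scanpy (1.11.5) and leidenalg (0.10.2) on 2500 variable genes, 30 principal components, 15 neighbours and resolution 0.5. A cluster was named from a list with 3 or more markers that were in 10% of its cells and 2-fold above the 25th percentile of clusters, unless its top genes were led by another kind of cell. Scrublet called 495 (5.93%) and 458 (4.91%) doublets, which were kept, with their removal as an alternative. UMIs were summed per class and library and given as CPM, with exact Poisson, Clopper-Pearson or conditional intervals at 95% (SciPy 1.17.1). A share of 0 was read as allowing 3 counts. With 1 library a genotype there is no test, and a fold of 1.5 with at least 100 UMIs describes size. The ratio step was tested on simulated Poisson counts for the germ-like comparison, where 94.8% of intervals over 8755 genes held the true value. These counts carried counting error only, so variation between cells, animals or libraries was not covered.

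The members and lists were chosen with earlier results of these data known. The text names all 9 members, up to 6 genes of each of 3 lists with the largest germ-like ratio past 1.5-fold, the 3 genes most like each member among genes of at least 500 UMIs, and *Cnot3*. Genes of the T cell list and *C1qa* were named after their values were seen.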

Additional observations from a re-analysis of the deposited data

Results flagged for a closer look

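Several members moved in opposite directions in 2 classes of cells, with counting intervals on opposite sides of 0. With 1 library a genotype none of these differences was tested. The log2 ratio of *Cd9*, Cnot3-cKO over control, was 0.17 in germ-like cells, against -0.13 in Sertoli-like, -0.40 in stroma-like and -0.22 in myoid-like cells. Inside the germ line *Cd9* was at -0.22 in SSC-like and 0.34 in differentiating-like cells, and *Itgb1* at -0.20 and 0.20. With germ-like cells centred within their library, *Cd9* was at -0.10 and 0.56, but the differentiating-like interval of *Itgb1* held 0 (0.11, -0.04 to 0.27). *Itga6* was at 0.33 in germ-like and -0.26 in Sertoli-like cells, *Mcam* at 0.81 and -0.46, and *Cd63* at 0.18 in germ-like and -0.07 in myoid-like cells. With control weights on the stages as clustered, the germ-like values of *Cd9* and *Itga6* were -0.10 and 0.00.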

How the results depend on the processing

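With 1 library a genotype no replicate could be left out. No paired analysis was possible because each genotype has a single merged matrix. In germ-like cells the number of members past 1.5-fold was 2 and ran from 1 to 3 over 18 alternatives, being 1 (*Cd24a*) with the stages as clustered weighted as in control. The shares of all genes were 6.71% higher and 3.15% lower in the main setting. With at least 1 UMI in each library the count was 3, beside 17.9% and 6.66%. With at least 500 UMIs it was 2, beside 3.61% and 2.06%. For the other alternatives, here and below, the shares over all genes were not computed. The study's filters also gave 2, but these were *Itga6* and *Cd24a*. *Epcam* ran from 0.46 to 0.78 and *Mcam* from 0.41 to 0.83 over 16 alternatives, positive in all and past 1.5-fold in 14. *Cd9* left its interval at 0.25 with a mitochondrial limit of 10% and at -0.10 with control stage weights, and *Thy1* was at 0.68 with those weights and reversed to -0.59 with the study's filters. In Sertoli-like cells the count went from 0 to 1 (*Mcam*, lower) with the 10% limit. In stroma-like cells it was 0 under all 13. In myoid-like cells it went from 1 to 0 with the study's filters, with classes from marker UMIs, with each cell equal and without the cluster almost wholly of Cnot3-cKO cells. The causes were not tested. Leaving out doublets could not be run for myoid-like cells, since only 2 control cells kept that name. Free RNA made up at most an estimated 8.64% and 7.20% of germ-like UMIs, and subtracting it left the germ-like count at 2. Depth limits *Thy1* most, at under 100 UMIs a library.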

Other observations

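In the 2 clusters that took no cell class name, a few members also had values. The larger, with 232 control and 294 Cnot3-cKO cells, was stroma-like by markers but led by Sertoli genes, and held *Itga6* at 127 and 107 and *Cd63* at 705 and 700 CPM. The smaller, with 13 and 14 cells, was Sertoli-like by markers but led by endothelial genes, and held *Epcam* at 67.3 and 70.0 CPM, from 15 and 18 UMIs, beside 34.5 and 41.9 in empty barcodes, and *Cd9* at 202 and 206. The germ clusters led by genes of other cells, 1 by stromal and 1 by Sertoli genes, had *Epcam* log2 ratios of 0.91 (0.73 to 1.09) and 1.14 (0.93 to 1.35), and *Mcam* ratios of 0.88 (0.61 to 1.14) and 0.55 (0.27 to 0.82).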
